A study of Mus musculus with 16 samples.

Results

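The 10 macrophage genes C1qa, C1qb, C1qc, Csf1r, Cd68, Mrc1, Cd163, Lyz2, Ccr2 and Vsir were followed across hearts of male C57BL/6 mice that carried a conditional knockout of Zbtb17 (cKO) or did not (control). Zbtb17 encodes the transcription factor Miz1. Both genotypes underwent either transverse aortic constriction (TAC), in which a tie around the aorta makes the heart pump against a higher pressure, or sham surgery. They were 8 to 10 weeks old before surgery, and the hearts were taken 4 weeks after it. The 4 groups were cKO TAC, cKO sham, control TAC and control sham, with 4 mice each and 1 Affymetrix array per mouse. The labels give neither the Cre driver, the deleted part of Zbtb17, nor the alleles of the controls, so the cell types that lost the gene are not known here. The genes were taken by symbol, with the probe set of highest mean over the 16 arrays. Each had exactly 1 probe set, out of 19938 genes measured by a probe set with a single symbol.

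Macrophages are phagocytes that live in every tissue and are also replenished from blood monocytes. In the heart they lie between the muscle cells, clear dying cells and debris, and take part in inflammation and scarring. Their survival depends on signals through the receptor Csf1r, whereas monocytes enter injured tissue largely through the chemokine receptor Ccr2. Tissue macrophages are a main source of the complement protein C1q, and the scavenger receptors Mrc1 and Cd163 mark resident or alternatively activated cells. RNA of bulk heart tissue was measured, so fewer or more cells of a type and less or more RNA per cell cannot be told apart.

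All values are log2 intensities as deposited, and all differences are differences of log2 values with the standard error (SE) of a limma fit on the 16 arrays. Zbtb17 had 6.47 to 6.52 in cKO TAC, 6.47 to 6.62 in cKO sham, 6.30 to 6.56 in control TAC and 6.19 to 6.50 in control sham hearts. It was not lower in cKO hearts, and with the deleted part unstated its signal is no test of the genotype labels. The mean over 10 ventricular cardiomyocyte markers lay between 12.72 and 13.04 on every array, so the defining genes of heart muscle were present. Myl7, an atrial myosin light chain, was above 6 on 6 arrays, namely cKO TAC replicates 1 and 2, cKO sham replicate 2, control TAC replicates 1 and 2 and control sham replicate 3. Atf3, a stress-induced transcription factor gene, was above 8 on 3 sham arrays, namely cKO sham replicate 1 and control sham replicates 3 and 4. Precision is limited throughout by the 4 mice per group.

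Of the 10 genes, 9 had a mean above the filter on low values, and each of the 9 had a higher group mean in TAC than in sham hearts of both genotypes. Averaged over genotype, the differences ran from 0.12 for Cd163 to 0.56 for C1qc, which are folds of 1.08 to 1.47. No gene passed the test at an adjusted p of 0.05, and neither did any other of the 21333 probe sets tested (percent called 0, smallest adjusted p = 0.0999 by limma). At an unadjusted p of 0.05, 7 of the 9 were higher and none was lower in TAC hearts, against 7.24% of all probe sets higher and 4.8% lower. The 9 genes varied together from mouse to mouse and were chosen with earlier results of these data known, so they are not 9 independent results. By sign alone, 53.8% of all probe sets were higher in the averaged comparison, 51.9% in cKO hearts and 54.6% in control hearts. The median difference of the 9 was 0.47, against 0.01 for all probe sets. The 10th gene, Ccr2, lay below the filter.

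The classical complement starter C1q is built of 3 kinds of chain, encoded by C1qa, C1qb and C1qc. The genes lie side by side on chromosome 4 in GRCm38.p6, with C1qb at 136880126 to 136886200, C1qc at 136889801 to 136892936 and C1qa at 136895916 to 136898844. The gaps are 3601 bases between C1qb and C1qc and 2980 bases between C1qc and C1qa, and no other annotated protein-coding gene overlaps them. Zbtb17 lies on the same chromosome at 141444673 to 141467937, 4.55 Mb away. The promoter sequences of C1qb and C1qc are shown because these neighbours varied together more closely than any other pair of the 9 genes, and that of Cd68, a lysosomal glycoprotein gene on chromosome 11, for contrast. They are RefSeq sequences of GRCm38.p6, 250 bases before to 50 bases after the annotated start, all on the minus strand and written 5′ to 3′, at chr4:136886151-136886450, chr4:136892865-136893164 and chr11:69666121-69666420. Capitals mark GAGGAA or its reverse complement TTCCTC, the core letters bound by PU.1, a factor that macrophage development requires.
C1qb: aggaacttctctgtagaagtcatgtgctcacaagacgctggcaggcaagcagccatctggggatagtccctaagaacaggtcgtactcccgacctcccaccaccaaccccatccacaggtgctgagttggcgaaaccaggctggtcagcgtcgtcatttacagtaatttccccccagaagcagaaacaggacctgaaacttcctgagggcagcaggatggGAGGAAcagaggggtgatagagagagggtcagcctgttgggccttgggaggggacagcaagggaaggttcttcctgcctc
C1qc: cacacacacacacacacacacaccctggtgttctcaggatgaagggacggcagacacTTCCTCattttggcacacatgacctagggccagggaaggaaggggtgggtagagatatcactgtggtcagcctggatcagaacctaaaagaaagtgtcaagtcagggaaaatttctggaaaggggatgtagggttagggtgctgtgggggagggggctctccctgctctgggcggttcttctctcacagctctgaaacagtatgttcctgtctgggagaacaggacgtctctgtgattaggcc
Cd68: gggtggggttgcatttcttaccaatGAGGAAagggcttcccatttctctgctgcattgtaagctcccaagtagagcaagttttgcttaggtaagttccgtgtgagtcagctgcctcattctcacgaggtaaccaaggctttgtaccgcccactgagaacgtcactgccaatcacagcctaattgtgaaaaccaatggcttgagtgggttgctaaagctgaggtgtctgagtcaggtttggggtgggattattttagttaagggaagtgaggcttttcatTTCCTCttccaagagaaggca
C1qb has 1 match, which starts 30 bases before the start, and C1qc has 1, which starts 193 bases before it. Cd68 has 2 of them and also 2 matches to TGANTCA, the letters bound by AP-1, at 149 and 24 bases before the start. On both strands, GAGGAA occurs in 28.3% and TGANTCA in 7.8% of all 32851 promoters of this length. Of the 8 genes with a promoter sequence, Mrc1 is the other with GAGGAA, with 3 matches, and Cd163, Lyz2, Ccr2 and Vsir hold none of these letters in the window. The element of interferon regulatory factors, searched as 2 copies of GAAA with any 2 bases between them, occurs in none of the 8 and in 3.4% of all promoters. A match is a description of the letters and shows no binding.

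C1qa had values of 7.26, 7.72, 7.0 and 7.05 in cKO TAC hearts, against 6.95, 6.56, 6.66 and 6.81 in cKO sham hearts. Control hearts had 7.28, 7.46, 7.16 and 7.84 after TAC, against 7.31, 6.69, 6.88 and 7.06 after sham. All 4 cKO TAC hearts lay above all 4 cKO sham hearts, while in controls the highest sham heart, replicate 1, lay above both TAC replicates 1 and 3. C1qb had 8.62, 9.21, 8.24 and 8.36 in cKO TAC hearts, against 8.26, 7.84, 7.97 and 7.96 in cKO sham hearts. It had 8.40, 8.67, 8.27 and 9.15 in control TAC hearts, against 8.52, 7.75, 7.95 and 8.45 in control sham hearts. The cKO groups overlapped only by the lowest TAC heart and the highest sham heart, and the control groups overlapped more widely. C1qc had 8.15, 8.71, 7.64 and 7.78 in cKO TAC hearts, against 7.71, 7.38, 7.54 and 7.40 in cKO sham hearts. It had 7.92, 8.19, 7.54 and 8.71 in control TAC hearts, against 7.84, 7.08, 7.43 and 7.81 in control sham hearts. As for C1qb, the groups overlapped in both genotypes, and the highest TAC heart was replicate 2 in cKO and replicate 4 in control mice for all 3 chains.

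The differences of the 3 chains between TAC and sham were of like size. In cKO hearts they were 0.51 ± 0.18 for C1qa, 0.60 ± 0.23 for C1qb and 0.56 ± 0.25 for C1qc (SE, n = 4 each). In control hearts they were 0.45 ± 0.18, 0.46 ± 0.23 and 0.55 ± 0.25 for the same genes in that order. Averaged over genotype, C1qa differed by 0.48 ± 0.12, C1qb by 0.53 ± 0.16 and C1qc by 0.56 ± 0.18, and none passed the test (limma, adjusted p = 0.233, 0.251 and 0.264). Without cKO TAC replicate 2, the averaged differences were 0.40, 0.43 and 0.45, and without control TAC replicate 4 they were 0.41, 0.44 and 0.45. Within a genotype the move was wider, to 0.40 for C1qb and 0.35 for C1qc in cKO hearts without cKO TAC replicate 2, and to 0.28 and 0.34 in control hearts without control TAC replicate 4.

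**Figure D1:**
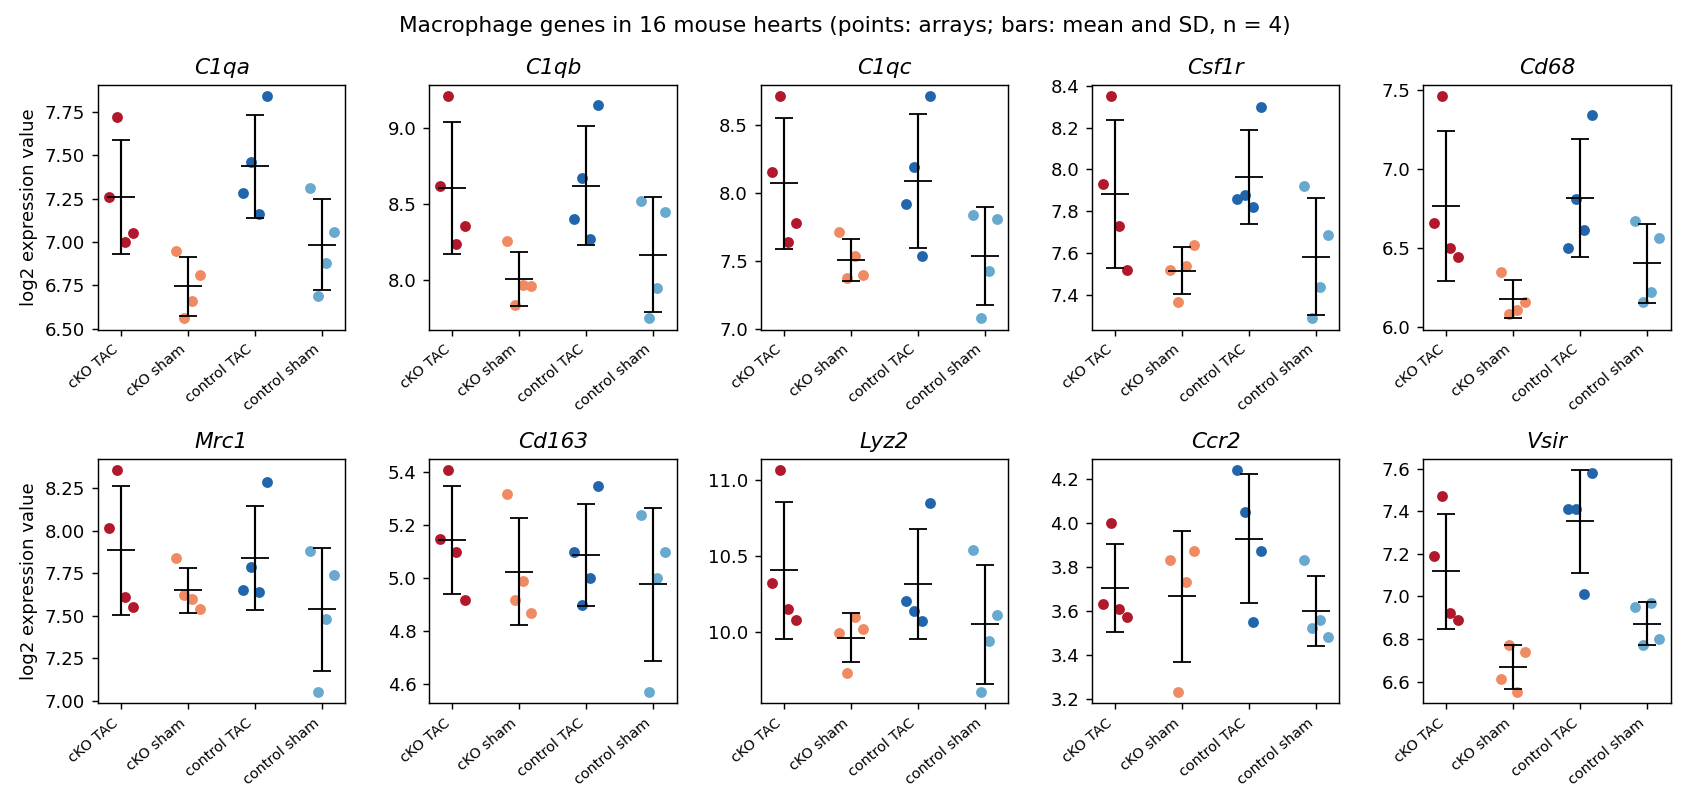
Deposited log2 value of each of the 10 macrophage genes (y axes) in the 4 groups, one panel per gene, with a point for each mouse and the group mean and SD over 4 mice. TAC means lie above sham means of the same genotype in every panel, and for most genes a single high TAC heart stands above the rest of its group, such as Cd68 at 7.46 in cKO TAC replicate 2.

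Csf1r, a tyrosine kinase receptor for the growth factors Csf1 and Il34 that macrophages need to survive, had 7.93, 8.35, 7.73 and 7.52 in cKO TAC hearts, against 7.52, 7.37, 7.54 and 7.64 in cKO sham hearts. In control hearts it had 7.86, 7.88, 7.82 and 8.30 after TAC, against 7.92, 7.29, 7.44 and 7.69 after sham. A single sham heart, replicate 1, kept the control groups from separating, and cKO TAC replicate 4 overlapped the cKO sham hearts. TAC minus sham was 0.37 ± 0.17 in cKO, 0.38 ± 0.17 in control and 0.37 ± 0.12 averaged over genotype, and the average missed the threshold (limma, adjusted p = 0.264). Without cKO TAC replicate 2, the cKO difference was 0.21.

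Ccr2, the receptor through which monocytes follow the chemokine Ccl2, had 3.63, 4.00, 3.61 and 3.57 in cKO TAC hearts, against 3.83, 3.23, 3.73 and 3.87 in cKO sham hearts. Control hearts had 4.24, 4.05, 3.55 and 3.87 after TAC, against 3.83, 3.52, 3.56 and 3.48 after sham. Its mean over all arrays, 3.72, lay below the filter of 4.37, so it was fitted only with the filter removed. There, TAC minus sham was 0.04 ± 0.16 in cKO, 0.33 ± 0.16 in control and 0.18 ± 0.11 averaged over genotype (limma, adjusted p = 0.578 for the average). A signal this low on the array bears little information on the transcript, and the groups overlapped in both genotypes.

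Cd68, a glycoprotein of macrophage lysosomes, had 6.66, 7.46, 6.50 and 6.44 in cKO TAC hearts, against 6.35, 6.08, 6.11 and 6.16 in cKO sham hearts. In control hearts it had 6.50, 6.81, 6.61 and 7.34 after TAC, against 6.67, 6.16, 6.22 and 6.56 after sham. The cKO groups did not overlap, although the lowest cKO TAC heart lay just above the highest cKO sham heart, and the control groups overlapped. TAC minus sham was 0.59 ± 0.21 in cKO, 0.41 ± 0.21 in control and 0.50 ± 0.15 averaged over genotype (limma, adjusted p = 0.245 for the average). Without cKO TAC replicate 2 the cKO difference was 0.36, and without control TAC replicate 4 the control difference was 0.24.

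The endocytic receptors had smaller differences. Mrc1, the mannose receptor, had 8.02, 8.36, 7.61 and 7.55 in cKO TAC hearts, against 7.84, 7.62, 7.60 and 7.54 in cKO sham hearts. Control hearts had 7.65, 7.79, 7.64 and 8.29 after TAC, against 7.88, 7.05, 7.48 and 7.74 after sham. The groups overlapped in both genotypes, and the averaged difference was 0.27 ± 0.14 (limma, adjusted p = 0.460). In cKO hearts it was 0.24 with all arrays and 0.077 without cKO TAC replicate 2, and in control hearts it was 0.31 with all arrays, 0.16 without control TAC replicate 4 and 0.14 without control sham replicate 2. Cd163, the receptor that takes up haptoglobin-haemoglobin complexes, had 5.15, 5.41, 5.10 and 4.92 in cKO TAC hearts, against 5.32, 4.92, 4.99 and 4.87 in cKO sham hearts. In control hearts it had 5.10, 4.90, 5.0 and 5.35 after TAC, against 5.24, 4.57, 5.0 and 5.10 after sham. Its averaged difference of 0.12 ± 0.11 was about the size of its SE (limma, adjusted p = 0.695), with a 95% interval of -0.11 to 0.34. The average was 0.071 without either cKO TAC replicate 2 or control TAC replicate 4, and 0.047 without control sham replicate 2, its lowest array. Left out 1 at a time, arrays of the same genotype moved the difference of Cd163 between 0.032 and 0.22 in cKO hearts, and between -0.026, without control sham replicate 2, and 0.20 in control hearts.

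Lyz2, the lysozyme of macrophages and neutrophils that cuts bacterial cell walls, had 10.32, 11.07, 10.15 and 10.08 in cKO TAC hearts, against 9.99, 9.73, 10.10 and 10.02 in cKO sham hearts. Control hearts had 10.20, 10.14, 10.07 and 10.85 after TAC, against 10.54, 9.60, 9.94 and 10.11 after sham. A single heart stood high in each TAC group, and control sham replicate 1 lay above 3 of the 4 control TAC hearts. The averaged difference was 0.36 ± 0.16 (limma, adjusted p = 0.394), and it was 0.25 without cKO TAC replicate 2 and 0.27 without control TAC replicate 4. In cKO hearts it was 0.45 with all arrays and 0.22 without cKO TAC replicate 2. The control difference was 0.27 ± 0.23 with all arrays, 0.089 without control TAC replicate 4, 0.12 without control sham replicate 2 and 0.43 without control sham replicate 1. Lyz2 lies 5523 bases from its close paralog Lyz1, whose averaged difference was 0.27 ± 0.15 (limma, adjusted p = 0.488), and arrays may not fully separate the transcripts of these copies.

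Vsir encodes VISTA, an immune checkpoint protein of myeloid cells that restrains T cells. It had 7.19, 7.47, 6.92 and 6.89 in cKO TAC hearts, against 6.61, 6.77, 6.55 and 6.74 in cKO sham hearts. In control hearts it had 7.41, 7.41, 7.01 and 7.58 after TAC, against 6.95, 6.77, 6.97 and 6.80 after sham. Vsir was the one gene of the 9 whose TAC and sham hearts did not overlap in either genotype, although over both genotypes cKO TAC hearts reached down to 6.89 and control sham hearts up to 6.97. TAC minus sham was 0.45 ± 0.13 in cKO hearts, 0.48 ± 0.13 in control hearts and 0.47 ± 0.09 averaged over genotype. The averaged difference ranked 17 of 21333 probe sets by p (unadjusted p = 0.0001507) and missed the adjusted threshold (limma, adjusted p = 0.172). Leaving out each array in turn kept it between 0.41 and 0.52, with adjusted p from 0.0766 to 0.354 by limma. The annotated interval of Vsir on chromosome 10, 60346851 to 60430294, overlaps Cdh23 and Gm17455, and the difference of the Cdh23 probe set was -0.04 ± 0.09.

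Members with no overlap between TAC and sham were thus C1qa, Cd68 and Vsir in cKO hearts, 3 of 9, where 2.28% of all probe sets lay wholly higher. In control hearts Vsir was the only one of 9, where 2.27% of all probe sets lay wholly higher. With both genotypes pooled none of the 9 separated, and 0.0234% of all probe sets did so upwards. Within each genotype alone, 6 of the 9 were higher at an unadjusted p of 0.05 in cKO hearts and 4 of 9 in control hearts, against 3.85% and 4.9% of all probe sets in the same comparisons. The median difference was 0.45 in cKO and 0.41 in control hearts, against 0.0075 and 0.015 for all probe sets. None of the 9 passed the adjusted test in either genotype (adjusted p 0.668 to 0.910 in cKO and 0.425 to 0.863 in control hearts by limma, percent called 0 in both). With array weights, the counts at an unadjusted p of 0.05 were 4 of 9 in cKO and 6 of 9 in control hearts. The medians were then 0.38 and 0.48, and the share of all probe sets at that p was not computed there.

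The counts at an unadjusted p of 0.05 were lower without the arrays with Myl7 above 6, which include the highest TAC heart of the cKO group. Fewer mice also lower such counts. The share of all probe sets at that p was not computed for the reduced fits below, so the counts cannot separate the 2. Without those 6 arrays, 2 mice remained in each TAC group and 3 in each sham group. The averaged differences of the 9 genes were then 0.08 to 0.39 with a median of 0.35, all positive, and 2 of the 9 were higher at an unadjusted p of 0.05. In cKO hearts the differences shrank to a range of -0.08 for Mrc1 to 0.27 for Vsir with none of 9 at that p. Their median was 0.16, against 0.45 with all arrays. In control hearts the differences were 0.21 to 0.55 with 2 of 9, and their median was 0.455, against 0.41 with all arrays. Leaving out cKO TAC replicate 2 alone gave 0.03 to 0.40 in cKO hearts with 2 of 9. Leaving out control TAC replicate 4 alone, which has a Myl7 value of 4.39, gave 0.02 to 0.40 in control hearts with 1 of 9, and that count was also 1 without control sham replicate 2 or 3. With the 3 high Atf3 arrays of the sham groups left out, the averaged differences were 0.20 to 0.63 with 6 of 9 higher at that p, and in control hearts the count was 1 of 9.

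**Figure D2:**
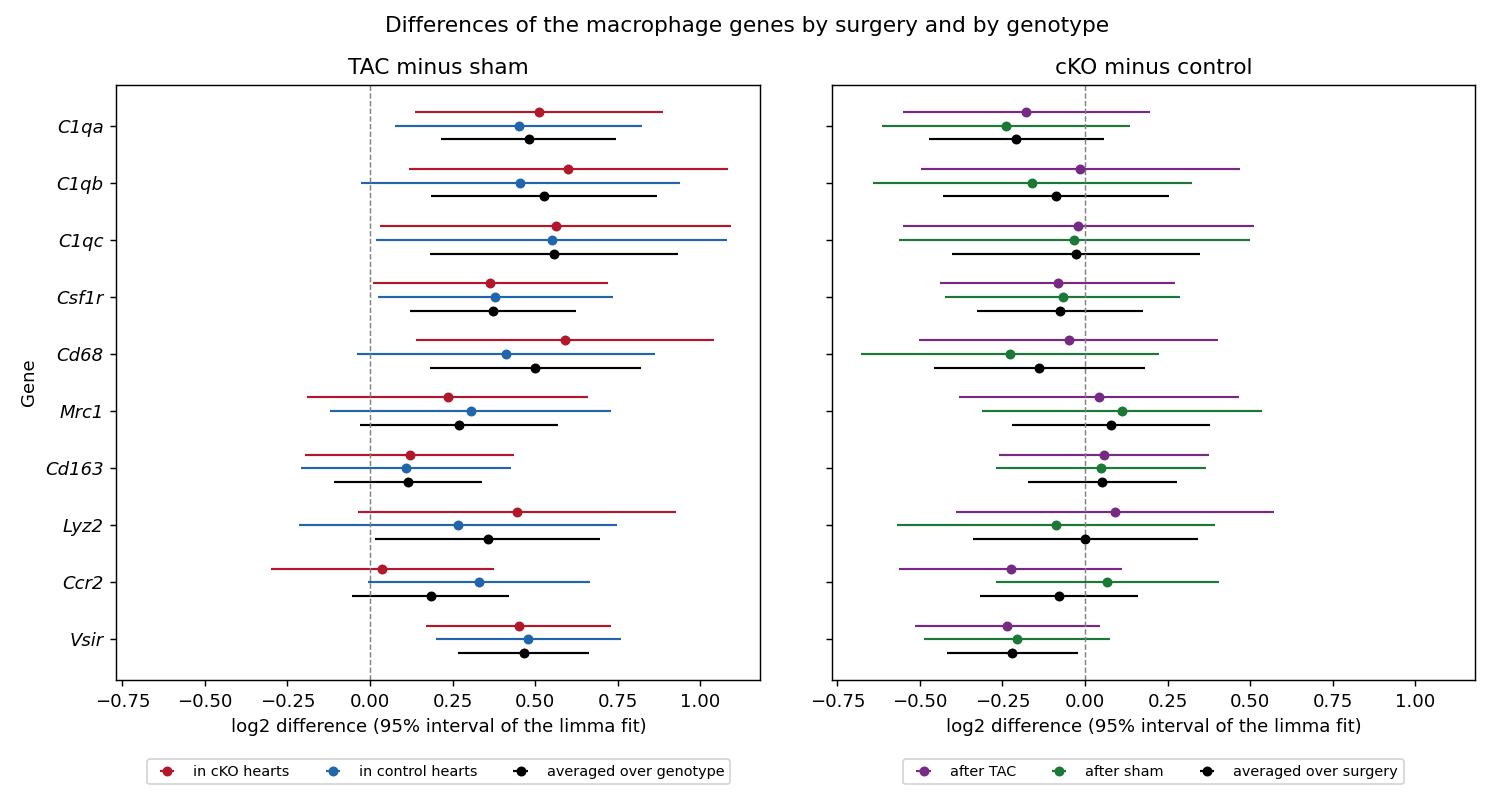
Log2 differences of the 10 macrophage genes with 95% intervals from the limma fit, TAC minus sham on the left (cKO, control and averaged over genotype) and cKO minus control on the right (after TAC, after sham and averaged over surgery). Ccr2 comes from the fit without a filter. On the left, all points lie above 0, up to 0.60 for C1qb in cKO hearts, and on the right points lie on both sides of 0, with Vsir averaged over surgery at -0.22.

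By genotype, the 9 genes lay on both sides of 0 with all arrays. With all arrays and averaged over surgery, cKO minus control ran from -0.22 for Vsir to 0.08 for Mrc1, with a median of -0.08, against -0.0037 for all probe sets. None of the 9 passed the adjusted test, against 4 probe sets (0.0188%) in all. At an unadjusted p of 0.05, 1 of the 9, Vsir, was lower and none was higher, where 6.68% of all probe sets were lower and 8.24% higher. This count was 3 without cKO TAC replicate 2, and 0 when any 1 of these arrays was left out: replicates 3 and 4 of cKO TAC, 1 and 3 of cKO sham, 1, 2 and 4 of control TAC, and 1 and 3 of control sham. It was also 0 with median centring and without the arrays with Atf3 above 8, where the differences were -0.25 to 0.08 with a median of -0.09. Without the arrays with Myl7 above 6, the differences were all negative, -0.38 to -0.04, with a median of -0.25. There, 2 of the 9 were lower at that p (limma, smallest adjusted p = 0.730). This choice took out means over the 9 genes of 7.70 and 8.20 in cKO TAC and of 7.59 and 7.69 in control TAC hearts. It left 7.43 and 7.40 in cKO TAC but 7.46 and 8.16 in control TAC hearts. The 9 genes varied together, so their shared sign is not 9 results, and the share of all probe sets below 0 was not computed there. Vsir averaged 7.12 ± 0.27 in cKO TAC, 6.67 ± 0.10 in cKO sham, 7.35 ± 0.24 in control TAC and 6.87 ± 0.10 in control sham hearts (SD, n = 4 each). Its difference by genotype was -0.22 ± 0.09, with a 95% interval of -0.42 to -0.02 (limma, adjusted p = 0.288), at -0.24 after TAC and -0.21 after sham. C1qa followed with -0.21 ± 0.12 averaged over surgery (limma, adjusted p = 0.446), and the other C1q chains were at -0.09 ± 0.16 for C1qb and -0.03 ± 0.18 for C1qc. The 95% interval of C1qc, -0.40 to 0.35, includes differences of either sign.

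After each surgery alone, cKO minus control lay between -0.24 and 0.09 after TAC, where 1 probe set in all was called (0.00469%), and between -0.24 and 0.11 after sham, where 5 were (0.0234%). None of the 9 was called or reached an unadjusted p of 0.05 in either, where 3.83% of all probe sets were higher and 3.75% lower at that p after TAC, and 5.96% higher and 4.72% lower after sham. The groups of the genotypes overlapped for every gene after each surgery, whereas 2.38% of all probe sets lay wholly higher and 1.89% wholly lower in cKO hearts after TAC, and 2.95% and 2.32% after sham. Without the arrays with Myl7 above 6, which leaves 2 mice in each TAC group, cKO minus control after TAC lay between -0.51 and -0.17, with all 9 negative and none called. The interaction, the TAC difference in cKO hearts minus that in control hearts, lay between -0.07 for Mrc1 and 0.18 for Cd68 and Lyz2, with SE of 0.19 to 0.35 and adjusted p of 1 for all 9 (limma, no probe set called, and 1.65% higher and 2.05% lower at an unadjusted p of 0.05). Intervals such as that of C1qb, -0.54 to 0.83, include differences between the genotypes as large as the TAC difference itself. Without the arrays with Myl7 above 6, all 9 interactions were negative, from -0.49 to -0.18. Without cKO TAC replicate 2 alone they were -0.23 to -0.04, and neither fit gave a call. As the 9 genes varied together, a sign shared by all 9 is not 9 independent results.

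C1qa averaged 7.26 ± 0.33 in cKO TAC, 6.75 ± 0.17 in cKO sham, 7.44 ± 0.30 in control TAC and 6.99 ± 0.26 in control sham hearts (SD, n = 4 each). Its level was thus highest in control TAC, followed by cKO TAC, control sham and cKO sham hearts, and each neighbour in this order differed from the next by less than the larger of their SDs. Cd68 had 6.77 ± 0.47 in cKO TAC, 6.18 ± 0.12 in cKO sham, 6.82 ± 0.37 in control TAC and 6.40 ± 0.25 in control sham hearts. Lyz2 had 10.41 ± 0.45 in cKO TAC, 9.96 ± 0.16 in cKO sham, 10.32 ± 0.36 in control TAC and 10.05 ± 0.39 in control sham hearts. For both genes, the TAC groups of the genotypes differed by less than the SD of either, and the cKO sham group had the smallest SD of the 4.

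The 9 genes varied together from mouse to mouse. Over the 16 arrays and 36 pairs of genes, Pearson r ranged from 0.417 for Cd163 and Vsir to 0.98 for C1qb and C1qc, with a median of 0.887. After the mean of its group was subtracted from each value, r still ranged from 0.48 to 0.977 with a median of 0.901, so mice of the same group also varied in step. The points share the array and its scaling, so these are descriptions. Against the mean of the other 8, C1qa had the highest r at 0.972 (Spearman 0.974), and Vsir the lowest at 0.709 (Spearman 0.637). Without the 2 arrays farthest out, cKO TAC replicate 2 and control TAC replicate 4, these became 0.945 and 0.459.

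The same hearts stood out for every gene. Both cKO TAC replicate 2 and control TAC replicate 4 were the highest of their group for all 9 genes and among the 3 highest of the 16 arrays for all 9. Control sham replicate 1 was the highest of its group for 8 of the 9, and control sham replicate 2 was the lowest of its group for all 9 and the lowest of all arrays for 6. The mean over the 9 genes was 7.70, 8.20, 7.43 and 7.40 in cKO TAC hearts, against 7.39, 7.14, 7.23 and 7.24 in cKO sham hearts. It was 7.59, 7.69, 7.46 and 8.16 in control TAC hearts, against 7.65, 7.0, 7.26 and 7.48 in control sham hearts. The cKO groups of this mean did not overlap, but the control groups did, since control sham replicate 1 lay above TAC replicates 1 and 3. Of the 2 highest hearts, cKO TAC replicate 2 also had the highest Myl7 value of all arrays, 8.83, and the highest Nppa value, 13.27, whereas control TAC replicate 4 had Myl7 at 4.39 and Nppa at 12.92. Nppa encodes the atrial natriuretic peptide, which ventricles make under load. Its group means were 12.37 in cKO TAC, 11.89 in cKO sham, 11.63 in control TAC and 11.76 in control sham hearts. In control hearts it was thus not higher after TAC, and control TAC replicate 1 had 9.86. The part of atrial tissue or of load in the macrophage values was not tested.

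**Figure D3:**
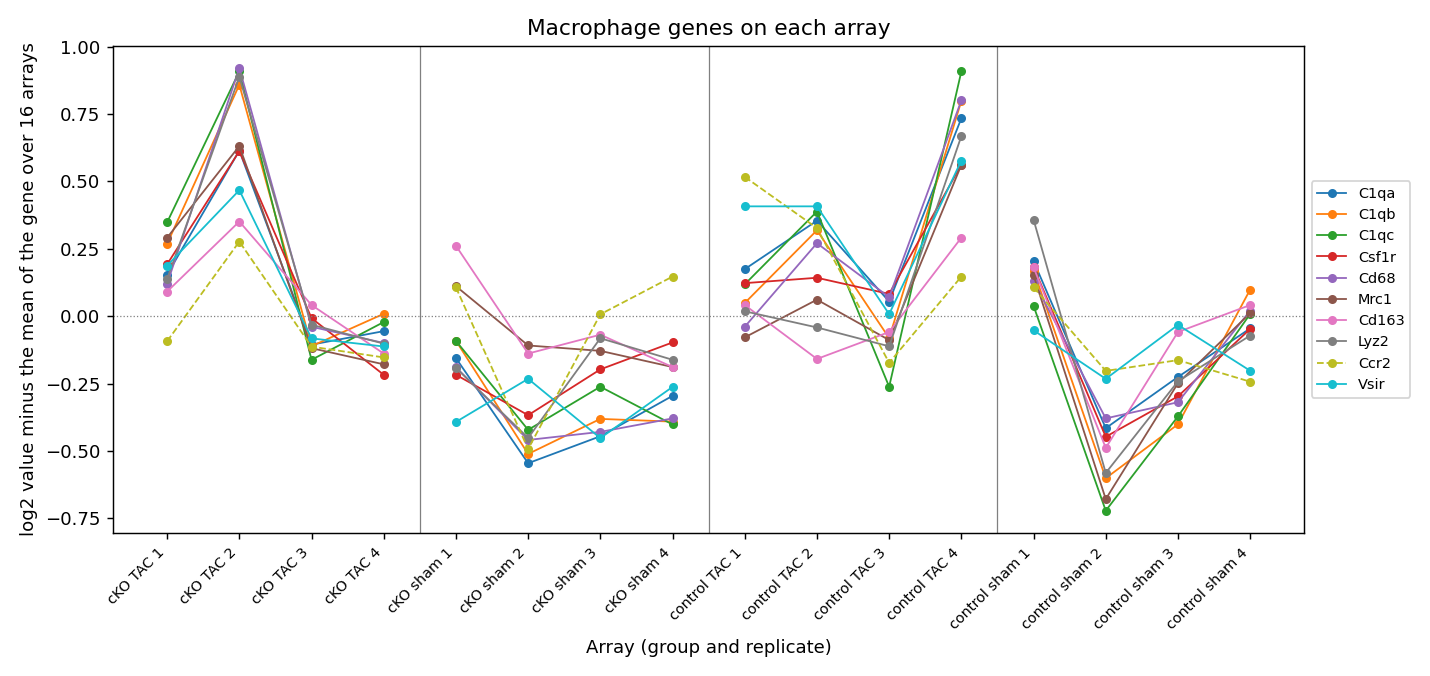
Each of the 10 macrophage genes (coloured lines, dashed for Ccr2, which lay below the filter) across the 16 arrays, with arrays on the x axis by group and replicate and, on the y axis, the log2 value minus the mean of that gene over all arrays. The solid lines peak at cKO TAC replicate 2 and control TAC replicate 4, where the mean of the 9 genes is 8.20 and 8.16, and dip at control sham replicate 2, where it is 7.0.

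Among 13661 genes ranked by likeness to the mean of the 9, with group means removed, the 10 closest were Nckap1l, Cd300ld, C3ar1, Adgre1, Dab2, Ctss, Lcp1, Pld4, Myl12b and Cfl1, with r from 0.975 to 0.908 over the 16 arrays. The median r of all other genes was -0.043, and 0.74% of them were above 0.8. Nckap1l, a cytoskeletal regulator of blood cells, headed the list with 0.975 (Spearman 0.979). Adgre1, an adhesion receptor gene used as a mouse macrophage marker, had 0.931, C3ar1, the receptor of the complement fragment C3a, 0.934, and Ctss, the lysosomal protease cathepsin S, 0.924. Singly, Nckap1l was the closest gene to C1qa, C1qb, C1qc and Cd68, Adgre1 to Csf1r (0.948), Dab2 to Mrc1 (0.934), Lsp1 to Cd163 (0.914), Cd33 to Lyz2 (0.979) and Sh3rf1 to Vsir (0.941). TAC minus sham averaged over genotype was 0.48 ± 0.17 for Adgre1 (limma, adjusted p = 0.290), 0.40 ± 0.14 for Nckap1l (0.293) and 0.49 ± 0.16 for C3ar1 (0.276), so these also missed the threshold.

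Wider lists of macrophage genes had smaller median differences. Of 30 other macrophage and myeloid markers, 25 passed the filter, and in TAC hearts of both genotypes averaged, 24 were higher by sign and 12 at an unadjusted p of 0.05, against 53.8% and 7.24% of all probe sets, with a median of 0.26 and none called. The smallest p was that of Cybb, a subunit of the phagocyte NADPH oxidase, at 0.67 ± 0.16 (limma, adjusted p = 0.229). Ptprc, the pan-leukocyte gene of CD45, was at 0.30 ± 0.12 (limma, adjusted p = 0.332), and Itgam, encoding the integrin CD11b, at 0.09 ± 0.11 (0.777). Of 13 measured markers of cardiac resident macrophages, 11 passed the filter. Of the 11, 6 were higher at that p, against the same 7.24%, with a median of 0.19, among them the lectin gene Clec10a at 0.25 ± 0.07. Of 15 measured markers of monocytes and recruited macrophages, 11 passed the filter, and Plac8, Chil3, Itgax and Arg1 fell below it. Of the 11, 2 were higher, S100a4 at 0.20 ± 0.08 and Vim at 0.36 ± 0.15, with a median of 0.09. Vim is also made by fibroblasts and endothelial cells. Nothing in either list was called. Whether the resident and the monocyte lists differ was not tested.

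Of 33 other complement components, regulators and receptors, from all parts of the system, 29 had a probe set and 20 passed the filter. Of the 20, 7 were higher at an unadjusted p of 0.05, against 7.24% of all probe sets, with a median of 0.15 and none called. C4b, a target of the proteases that travel with C1q, had the smallest p, with a difference of 0.96 ± 0.26 (limma, adjusted p = 0.233), and Serping1, the C1 inhibitor, had 0.48 ± 0.15 (0.250). A further list held ligands of Csf1r and Ccr2 together with other chemokine and growth factor genes and their receptors. Of its 19 measured genes, 13 passed the filter, and 4 of these were higher at that p, with a median of 0.08. The smallest p was that of the chemokine gene Cxcl12, not itself a ligand of Csf1r or Ccr2, at 0.36 ± 0.09. Of 19 scavenger receptors, lectins and lysosomal genes, 5 were higher, with a median of 0.11, and the smallest p was that of the progranulin gene Grn at 0.34 ± 0.09. Of 19 measured immune checkpoint genes and partners beside Vsir, 13 passed the filter, and 3 of these were higher, with a median of 0.11. The smallest p was that of Cd47, the signal that restrains phagocytosis, at 0.17 ± 0.04. Selplg, with the next smallest p, had 0.28 ± 0.09. None of these was called.

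By MHC class II presentation, macrophages, dendritic cells and B cells show antigen to T cells. Of 9 measured genes of it, 8 passed the filter. These had medians of -0.38 for cKO minus control averaged over surgery and 0.23 for TAC minus sham averaged over genotype. H2-Aa had 7.41, 6.86, 6.70 and 7.10 in cKO TAC and 6.42, 6.26, 5.96 and 6.47 in cKO sham hearts, against 8.36, 8.71, 7.08 and 7.59 in control TAC and 7.58, 7.23, 6.88 and 7.80 in control sham hearts. After sham all 4 cKO hearts lay below all 4 control hearts, as 2.32% of all probe sets did, and after TAC they overlapped. cKO minus control averaged over surgery was -1.01 ± 0.21 for H2-Aa and -0.86 ± 0.20 for H2-Ab1, both short of the threshold (limma, adjusted p = 0.0989 and 0.130). Of the 8, 6 were lower in cKO hearts at an unadjusted p of 0.05, against 6.68% of all probe sets. TAC minus sham was 0.65 ± 0.21 and 0.63 ± 0.20 for H2-Aa and H2-Ab1, averaged over genotype. With group means removed, the mean of the 8 followed the 9 macrophage genes only loosely from mouse to mouse (r = 0.468 over 16 arrays). That of the 25 other macrophage markers followed them closely by the same measure (r = 0.982).

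Markers of other cells moved to differing degrees. Fibroblast markers, all 12 measured, had a median TAC difference of 0.31, with 6 higher at an unadjusted p of 0.05 against 7.24% of all probe sets, and 10 endothelial markers had a median of 0.17 with 5 higher. The 10 ventricular cardiomyocyte markers had a median of -0.07 with 3 lower, against 4.8% of all probe sets. Over the 16 arrays, with group means removed, the mean of each list correlated with the macrophage mean at 0.70 for fibroblasts, 0.635 for endothelium and -0.797 for cardiomyocytes. The cardiomyocyte mean was 12.72 to 13.02 in cKO TAC, 12.99 to 13.04 in cKO sham, 12.77 to 12.96 in control TAC and 12.79 to 13.03 in control sham hearts. The part of tissue composition in the macrophage differences was not tested. Few markers of other white cells passed the filter, namely 5 of 12 for T cells, 3 of 9 for B cells, 3 of 12 for neutrophils, 1 of 8 for NK cells, 5 of 9 for dendritic cells and 3 of 8 for mast cells, and their median TAC differences lay between -0.12 and 0.04. Of the 5 T cell genes, 2 were higher by sign, and their median was -0.0063. The 2 of smallest p were Cd28 at -0.33 ± 0.11 and Thy1 at 0.15 ± 0.07 (limma, adjusted p = 0.276 and 0.417). Immediate early and stress genes had a median of -0.28 with 4 of 11 lower at that p, and the 3 arrays with Atf3 above 8 are all sham arrays.

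**Figure D4:**
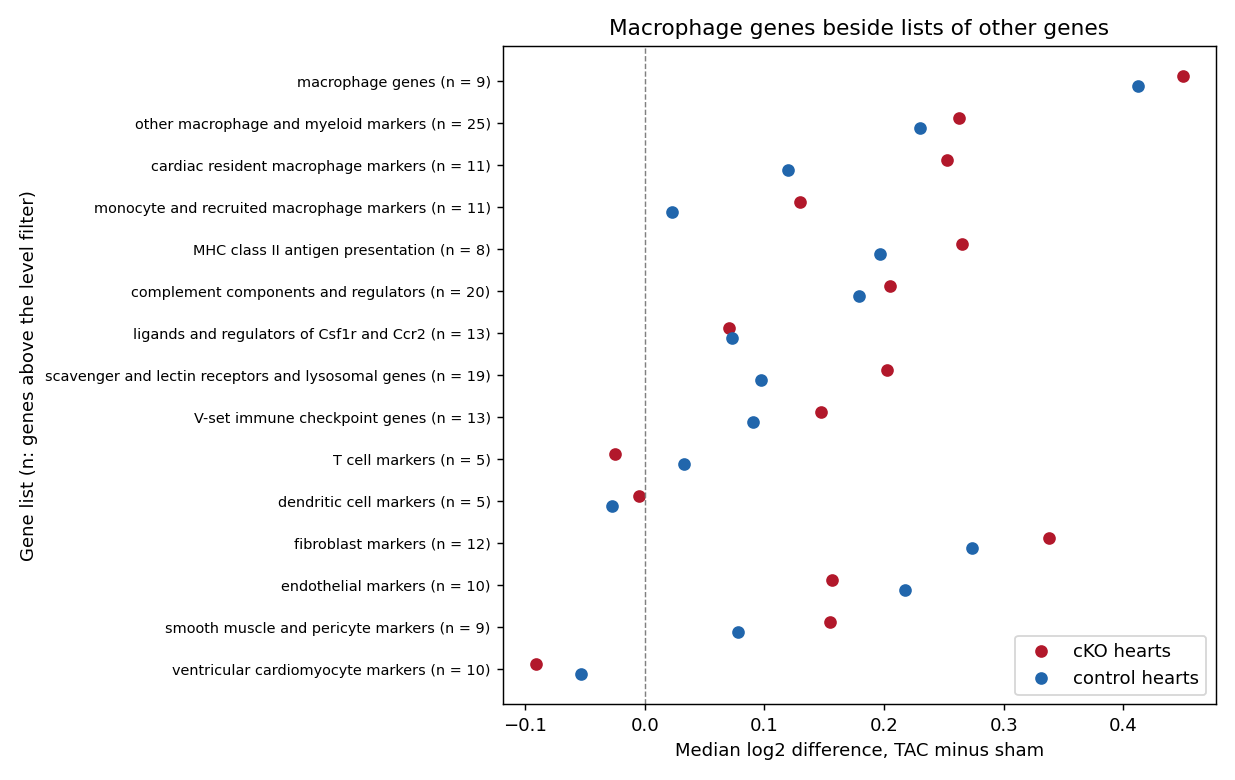
Median log2 difference, TAC minus sham, over the genes of each list above the filter, in cKO hearts and in control hearts (points), with their number beside each name. The 9 macrophage genes have medians of 0.45 in cKO and 0.41 in control hearts, other macrophage markers 0.26 and 0.23, and ventricular cardiomyocyte markers -0.09 and -0.05.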

How the data were processed

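RNA of 16 mouse hearts was labelled with biotin and hybridised to 1 Affymetrix array per mouse, per the labels' protocols. The deposited values are on a log2 scale, given by the authors to 2 decimals for 35556 probe sets (2.34 to 14.35). The log base was inferred, because natural logs would put the top signal at 1706577, beyond the 65536 levels of a 16-bit scanner. MAS5 is named, without a version, in the submitters' processing notes, and the method that scaled the arrays (medians 4.85 to 4.97) is one that the sources used here do not give. A shift common to a whole array is lost by such scaling.

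Genes were named from the platform annotation, with 21789 probe sets of 1 symbol, 1621 of several and 12146 of none, and 21698 probe sets were matched by Entrez ID to RefSeq annotation of GRCm38.p6. The filter on low values kept the 21333 probe sets whose mean exceeded 4.37, the 40th percentile. limma 3.58.1 in R 4.3.3 fitted 4 group means to all 16 arrays (12 residual degrees of freedom) with a trended variance, and two-sided p-values were adjusted by Benjamini-Hochberg over all probe sets and called at 0.05. The 7 comparisons were TAC minus sham in cKO, in control and averaged over genotype, cKO minus control after TAC, after sham and averaged over surgery, and the interaction. The fit was checked on simulated data. Samples were grouped by their titles, and nothing in the labels gives a batch. Any 2 arrays differed in at least 97.4% of probe sets, and their Spearman correlation was 0.972 to 0.987.

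The members and the 23 gene lists were chosen with earlier results of these data known. Named beside the members are, for each list, genes with an adjusted p under 0.05 or else the 2 of smallest p in the averaged TAC comparison, the 10 genes of highest likeness to the mean of the members and the closest gene to each, and Ptprc, Adgre1, Itgam, Myl7, Atf3, Nppa and Zbtb17. Lyz1 and Cdh23 were added as neighbours of members. Alternatives changed 1 choice at a time: quantile normalization, median centring, array weights, no filter or one at the 60th percentile, no variance trend, a replicate block, fits to only the groups compared, averaging all probe sets of a gene, and each array left out. Leaving out the arrays with Myl7 above 6 or Atf3 above 8, and fitting Ccr2 without a filter, were chosen after seeing the data. Promoter letters came from RefSeq sequences, found for 8 of the 10 members.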

Additional observations from a re-analysis of the deposited data

Results flagged for a closer look

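In 40 sets, each 1 gene in 1 group of 4 mice, the gap of the highest or the lowest mouse to its nearest neighbour was set against the whole range of the group. The gap exceeded the 95% critical value of Dixon's test in 3 sets, and chance alone gives about 1 in 20. Csf1r stood at 8.30 in control TAC replicate 4, against 7.82 to 7.88 in the other 3 control TAC hearts. Lyz2 stood at 10.85 in the same heart, against 10.07 to 10.20 in the other 3. Ccr2 stood at 4.00 in cKO TAC replicate 2, against 3.57 to 3.63 in the other 3 cKO TAC hearts, at a level below the filter.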

How the results depend on the processing

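No member passed the adjusted threshold of limma under any alternative run, and the TAC minus sham differences averaged over genotype of the 9 members kept their sign under all of them, with smallest adjusted p of 0.0766 with an array left out and 0.131 otherwise. The filter at the 60th percentile left out Cd163. With 4 mice a group, differences of the size of the SE by genotype have no settled sign. The cause of the moves below was not tested. Among 24 same-numbered pairs of arrays from different groups, residuals correlated at -0.205 to 0.193 (median -0.03), and among 72 other pairs at -0.327 to 0.252. No sign that the numbers pair the mice was seen, but a pairing that affects few probe sets could be missed. With the replicate block, 2 probe sets in place of 4 were called for cKO minus control averaged over surgery and 0 in place of 5 after sham, and no member was called with or without it.

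Counts of all probe sets called moved as follows. For TAC minus sham averaged over genotype the count was 1 with no filter and 0 to 1 with an array left out. In control hearts it was 5 with no filter, 1 with only the groups compared, 1 without the arrays with Atf3 above 8, and 0 to 2 with an array left out. In cKO hearts it was 1 with only the groups compared and 0 to 1 with an array left out. For cKO minus control averaged over surgery, 4 became 8 with quantile normalization or averaged probe sets per gene, 9 with the filter at the 60th percentile, 2 with median centring or no trend, 1 with no filter or without the arrays with Myl7 above 6, and 1 to 81 with an array left out, the highest without control sham replicate 4. After sham, 5 became 3 with no trend or only the groups compared, 1 with array weights, 0 with median centring, the filter at the 60th percentile, averaged probe sets per gene or without either set of arrays, and 0 to 27 with an array left out, the highest again without control sham replicate 4. After TAC, 1 became 2 with quantile normalization or array weights, 0 with no trend, only the groups compared or without either set of arrays, and 1 to 2 with an array left out.

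Members that changed sign, none of them called, were these. Without the arrays with Myl7 above 6, TAC minus sham in cKO hearts was -0.08 for Mrc1 and -0.05 for Cd163. There, cKO minus control for Mrc1, Cd163 and Lyz2 was -0.14, -0.0375 and -0.20 averaged over surgery and -0.385, -0.165 and -0.345 after TAC. The interaction was -0.26 for C1qa, -0.23 for C1qb, -0.39 for C1qc, -0.25 for Cd68, -0.255 for Cd163 and -0.30 for Lyz2. Without the arrays with Atf3 above 8, Lyz2 averaged over surgery was -0.015 and the interaction of Csf1r 0.0058. With median centring, C1qc by genotype was 0.0094 averaged and 0.0263 after sham, and the interactions of C1qc and Cd163 were -0.0337 and -0.0362. With array weights, Lyz2 by genotype was -0.0359 averaged and -0.0248 after TAC, Mrc1 -0.0615 after TAC, and the interactions -0.0518 for C1qa, -0.0014 for C1qb, -0.12 for C1qc and -0.0162 for Cd163. With quantile normalization, the interactions of Csf1r and Cd163 were 0.0202 and -0.0271.

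With an array left out, TAC minus sham of Cd163 in control hearts ranged from -0.0258 to 0.20. For cKO minus control averaged over surgery the ranges were -0.19 to 0.0004 for C1qb, -0.13 to 0.0771 for C1qc, -0.0038 to 0.15 for Mrc1, -0.0154 to 0.0962 for Cd163 and -0.11 to 0.0904 for Lyz2. After sham they were -0.19 to 0.0675 for C1qc, -0.17 to 0.0442 for Csf1r, -0.05 to 0.23 for Mrc1, -0.0883 to 0.135 for Cd163 and -0.24 to 0.0767 for Lyz2. After TAC they were -0.22 to 0.16 for C1qb, -0.23 to 0.19 for C1qc, -0.24 to 0.0383 for Csf1r, -0.28 to 0.125 for Cd68, -0.12 to 0.19 for Mrc1, -0.0308 to 0.145 for Cd163 and -0.13 to 0.27 for Lyz2. The interaction ranged from -0.0917 to 0.20 for C1qa, -0.0558 to 0.32 for C1qb, -0.20 to 0.22 for C1qc, -0.17 to 0.11 for Csf1r, -0.0542 to 0.35 for Cd68, -0.23 to 0.0925 for Mrc1, -0.0783 to 0.15 for Cd163, -0.0442 to 0.36 for Lyz2 and -0.15 to 0.0458 for Vsir.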

Other observations

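Myl2, the ventricular myosin light chain, was the one gene of the lists that passed the adjusted test in any comparison. cKO minus control was -0.42 ± 0.04 averaged over surgery, -0.48 ± 0.06 after TAC and -0.37 ± 0.06 after sham (limma, adjusted p = 0.00023, 0.00434 and 0.0401). The other ventricular cardiomyocyte markers did not share this direction, since 9 of the 10 were positive in the averaged comparison and the median was 0.07. Its TAC minus sham difference averaged over genotype was -0.03 ± 0.04 (limma, adjusted p = 0.767). Pressure overload markers had a median TAC difference of 0.26, with the smallest p for Postn, a matrix protein of activated fibroblasts, at 0.99 ± 0.45 (limma, adjusted p = 0.397) and Acta1, skeletal alpha-actin, at 0.87 ± 0.41 (0.414).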
